A study of Bos grunniens and Bos grunniens x Bos taurus with 12 samples.

Results

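The BCL2 family decides whether a cell releases the contents of its mitochondria and dies by apoptosis. The genes described were BCL2, BCL2L1 and MCL1, which hold cells alive, BAX and BAK1, which open the outer mitochondrial membrane, and BCL2L11, BID, BAD, BBC3 and PMAIP1, the BH3-only genes that start the process. These 10 genes were taken by name. A row with the gene's symbol was found for 6 of the 10 among 20965 genes, of which 13662 carry a symbol. The symbols BCL2L1, BID, BAD and BBC3 were absent.

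Ribo-seq counts the short RNA fragments that translating ribosomes protect (ribosome footprints, RFs). The count of a gene follows both the amount of its mRNA and how densely ribosomes load it, so the translation levels below are levels of footprints and not of protein. Whole testis was measured in 12 libraries, 1 per animal, in 4 groups of 3. Yak (Bos grunniens) were males of 6 months, labelled as juvenile, 18 months, labelled as puberty, and 4 years, labelled as sexual maturity. Cattle–yak, also of 4 years and labelled as sexual maturity, are the sterile male hybrids of a Jersey bull and a Gannan yak cow. The GEO labels give castration as the way the testes were obtained in all groups, whereas the study's methods give euthanasia for the yak, so tissue collection and group cannot be told apart.

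In healthy cells BCL2, BCL2L1 and MCL1 bind BAX, BAK1 and the BH3-only proteins. When BH3-only proteins accumulate, BAX and BAK1 are freed, cytochrome c leaves the mitochondria, and APAF1 and caspase-9 form the apoptosome, which starts the caspase cascade. In the testis this pathway removes surplus germ cells early in spermatogenesis. Male mice without Bax are sterile, and forced expression of BCL2 or BCL2L1 in mouse germ cells disturbs spermatogenesis.

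Library totals ran from 16304058 to 52616039 counts, with 16304058 to 17862516 in the yak of 4 years and 38437889 to 52616039 in cattle–yak. One library stood apart from its label: replicate 2 of the yak of 18 months correlated at 0.949 to 0.952 (Pearson's r on log2 CPM over 16906 genes) with the yak of 4 years, but at 0.771 to 0.816 with the other libraries of its own group. The summed FPKM (fragments scaled to gene length and library size) of its 5 elongating spermatid markers was 7148, against 13.7 in replicate 1 and 32.2 in replicate 3. Differences and ratios of the 6 genes that use the 18-month group are therefore given with and without this library. Of the tissue's defining markers with a row, all 6 of Sertoli cells and all 3 of Leydig cells were detected in every group. The comparisons share libraries, so that they are not independent of each other.

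In cattle–yak against yak of 4 years, BCL2, MCL1 and BAK1 were higher. These 3 of the 6 genes were called, meaning an adjusted p below 0.05 (quasi-likelihood F-test of edgeR, Benjamini-Hochberg adjusted over all genes tested) and a change of at least 2-fold (log2 fold change of 1). Over all 16498 genes tested, 17.1% were called higher and 27% lower. None of the 6 had a negative log2 fold change, so 0 were lower by edgeR, DESeq2 or limma. By the adjusted p alone 5 of the 6 were higher, against a background of 31.5% higher and 34.2% lower. Between yak of 6 months and 4 years, BCL2 was lower at 4 years and was the only one of the 6 called. There the background was 31% higher and 24.7% lower over 16133 genes. By the adjusted p alone 1 was higher (BAX) and 3 were lower (BCL2, MCL1 and BAK1), against 37.7% and 34.8% of all genes. Scaling by library totals alone changed the split over all genes to 40.9% higher and 15.5% lower and raised the median log2 fold change of all genes by 0.57. All 6 genes passed the filter on low counts in each comparison.

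Neither comparison with the 18-month group called any of the 6 genes by edgeR. In yak of 18 months against 6 months, 0.0202% of 14874 genes were called higher and 0.0471% lower. There 0 of the 6 had an unadjusted p below 0.05, against 25.8% of all genes. DESeq2 and limma on FPKM also called 0 of the 6 there, with 1 at an unadjusted p below 0.05 by each. Of all genes, DESeq2 called 7.0% higher and 5.1% lower. Limma called 0.68% higher and 0.46% lower on log2(FPKM + 1), and 2.06% and 0.86% on log2(FPKM + 0.1). Without replicate 2 of the 18-month group, 0 of the 6 were called again, against 0.226% of all genes higher and 0.279% lower. The background split depended on scaling, with 3 genes higher and 7 lower as tested, 104 and 49 with library totals alone, and 79 and 51 with the upper quartile. In yak of 4 years against 18 months, 0% of 16175 genes were called higher and 0.0371% lower, while 5731 genes and 2 of the 6 had an unadjusted p below 0.05. DESeq2 called 1 of the 6 in that comparison (BCL2, lower at 4 years), against 7.9% of all genes higher and 12.5% lower. Limma called 0, against 0.025% higher and 0.43% lower on log2(FPKM + 1), and 0.019% and 0.30% on log2(FPKM + 0.1). Without replicate 2 of the 18-month group, edgeR called 1 of the 6 (BCL2, lower at 4 years), with 26.1% of 16377 genes higher and 18.5% lower.

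**Figure D1:**
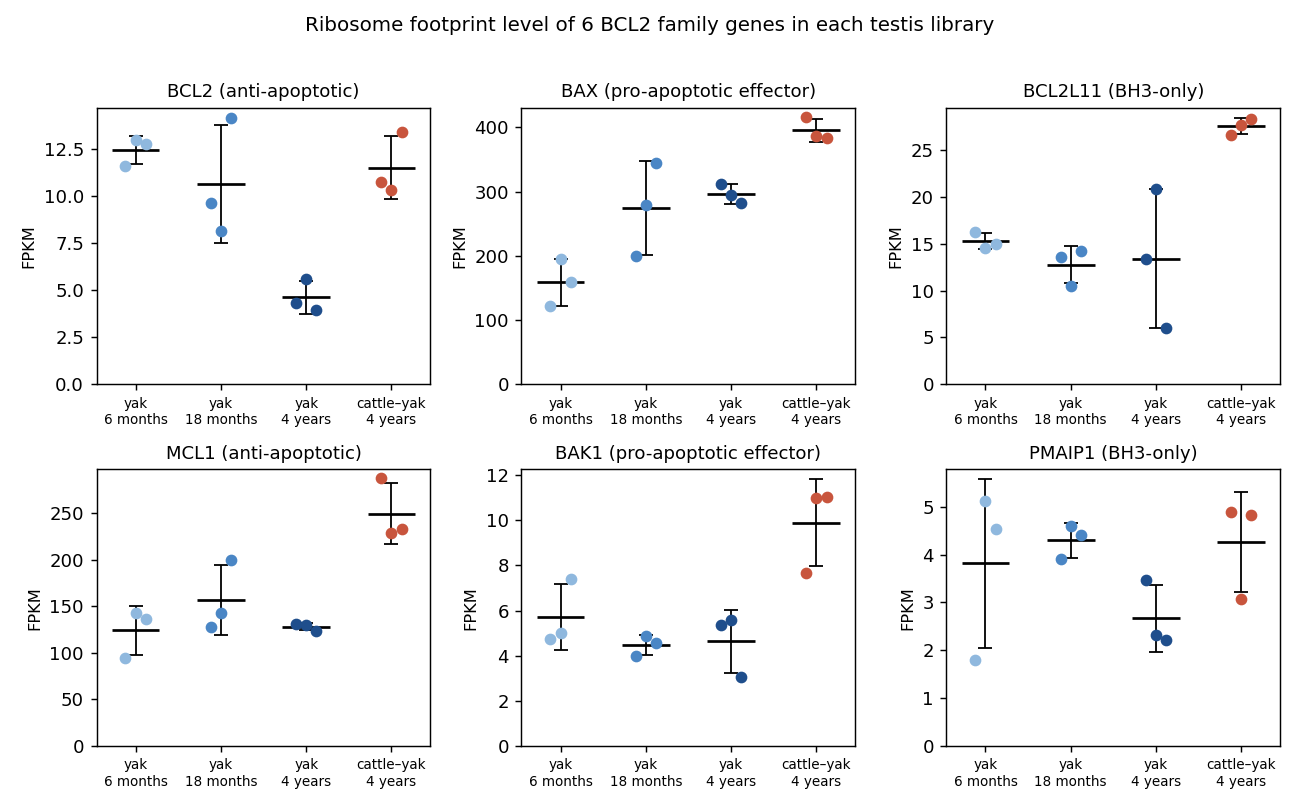
FPKM (vertical axis, linear, from 0) of the 6 genes with a symbol in each of the 12 testis libraries; points are libraries in the order of replicates 1 to 3, horizontal bars are group means and error bars are SD (n = 3). BCL2 is lowest in the yak of 4 years, with 3.92 to 5.61 FPKM, and MCL1, BAX, BAK1 and BCL2L11 are highest in cattle–yak.

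BCL2 (ENSBGRG00000019339), the founding anti-apoptotic gene of the family, was translated at 11.58, 12.98 and 12.77 FPKM in the 3 yak of 6 months. The yak of 18 months had 9.64, 8.16 and 14.17 FPKM, of which 8.16 belonged to the library that stood apart. The yak of 4 years had 4.3, 5.61 and 3.92 FPKM. Every library of the yak of 4 years was below every other library. In cattle–yak the level was 10.73, 10.34 and 13.42 FPKM, so that on the FPKM scale cattle–yak of 4 years overlapped with the yak of 6 and 18 months and not with the yak of their own age. On the TMM-scaled CPM (counts scaled by library total and composition) used for the tests, the cattle–yak, at 6.66 to 8.65, lay below the yak of 6 months, at 11.2 to 11.9, and still overlapped with those of 18 months. The counts behind these levels were 46 to 72 in the yak of 4 years and 287 to 406 in cattle–yak.

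Against yak of 4 years, BCL2 was 2.50-fold higher in cattle–yak (log2 fold change 1.32 ± 0.23 SE, adjusted p = 0.00121 by edgeR). The call held under every alternative run, with log2 fold changes of 1.16 to 1.55. From 6 months to 4 years in yak, BCL2 was 4.00-fold lower at 4 years (SE of the log2 fold change 0.23, adjusted p = 6.21e-05), and this call also held under every alternative, from -2.15 to -1.27. The difference from 18 months to 4 years was -1.40 ± 0.34 with an adjusted p of 0.0723, and -1.57 with an adjusted p of 0.00419 when replicate 2 of the 18-month group was left out. From 6 to 18 months the difference was -0.57 ± 0.30 (adjusted p = 0.262), and -0.38 (adjusted p = 0.390) without that library.

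MCL1 (ENSBGRG00000000962), a short-lived anti-apoptotic protein that holds BAK1 and BCL2L11 in check, was translated at a far higher level per length than BCL2. Its FPKM was 94.19, 142.24 and 136.45 in the yak of 6 months, 127.23, 143.11 and 199.73 in those of 18 months, and 130.37, 129.49 and 123.49 in those of 4 years. The 3 yak groups overlapped on this scale, whereas on TMM-scaled CPM the yak of 4 years lay below both younger groups. In cattle–yak the level was 287.3, 228.84 and 232.67 FPKM, above all 9 yak libraries.

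Against yak of 4 years, MCL1 was 2.09-fold higher in cattle–yak (log2 fold change 1.06 ± 0.13, adjusted p = 0.000192). Its size lies close to the 2-fold threshold. Without replicate 1 of the cattle–yak, the library with the highest level, the log2 fold change was 0.94 and the adjusted p 0.000251, and with limma it was 0.95 on log2(FPKM + 1) and 0.96 on log2(FPKM + 0.1), so the call was lost on size and not on the test. From 6 months to 4 years the difference was -0.52 ± 0.15 (adjusted p = 0.0110). This direction depended on scaling, since it was 0.03 with library totals alone and 0.06 on the FPKM scale. No difference that passed the test was seen with the 18-month group: 0.01 ± 0.21 from 6 to 18 months (adjusted p = 0.983) and -0.50 ± 0.20 from 18 months to 4 years (adjusted p = 0.138). Without replicate 2 of the 18-month group the last value was -0.58 (adjusted p = 0.0283), and the first was 0.10 (adjusted p = 0.828).

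BAX (ENSBGRG00000018680), the effector that moves from the cytosol to the mitochondria, had the highest FPKM of the 6 genes in every library. It was at 122.42, 194.73 and 158.8 FPKM at 6 months, 199.36, 279.87 and 344.9 in the group of 18 months, 312.42, 295.01 and 282.04 in that of 4 years, and 415.91, 386.81 and 383.47 in cattle–yak. Group means thus increased from 159 ± 36.2 (SD, n = 3) in the youngest yak to 395 ± 17.8 FPKM in cattle–yak, while the yak of 18 months and 4 years overlapped. On TMM-scaled CPM the yak of 6 and 18 months overlapped too. The cattle–yak exceeded the yak of 4 years by 1.33-fold (log2 fold change 0.42 ± 0.12, adjusted p = 0.0132), which passed the test but not the 2-fold threshold. With all 12 libraries in 1 fit the adjusted p was 0.0508.

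In yak of 4 years against 6 months, BAX differed by 0.40 ± 0.16 on the log2 scale (adjusted p = 0.0480). With library totals alone the same difference was 0.96 (adjusted p = 0.00140), which is 0.31 above the median of all genes under that scaling. The adjusted p rose to 0.0987 with upper quartile scaling and to 0.158 without replicate 1 of the yak of 4 years. From 6 to 18 months it was 0.46 ± 0.22 (adjusted p = 0.228), and from 18 months to 4 years -0.03 ± 0.21 (adjusted p = 0.922), a difference that turned positive, to 0.14, with library totals alone. Both values, without replicate 2 of the 18-month group, were 0.48 (adjusted p = 0.305) and -0.03 (adjusted p = 0.905). The authors' group means of the BAX counts differ by up to 0.24 reads from the means of the whole-number counts. This happens when RSEM divides reads among loci before rounding, so some BAX reads were shared with another locus. How many were shared is not seen from these differences, and the values carry that uncertainty.

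BAK1 (ENSBGRG00000022225), the effector that resides in the mitochondrial membrane, was translated at a low level. It was at 4.73, 5.02 and 7.39 FPKM at 6 months, 3.98, 4.87 and 4.55 at 18 months, and 5.34, 5.56 and 3.04 at 4 years. All yak groups overlapped on this scale, whereas on TMM-scaled CPM the yak of 6 months lay above both older yak groups. Cattle–yak had 7.66, 10.98 and 11.03 FPKM, and on the FPKM scale even the lowest of these exceeded all yak libraries. On TMM-scaled CPM the lowest cattle–yak library, at 4.56, was below the highest library of the yak of 6 months, at 6.00.

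Against yak of 4 years, BAK1 was 2.16-fold higher in cattle–yak (log2 fold change 1.11 ± 0.30, adjusted p = 0.0104). The 3 yak libraries held only 33 to 66 counts for this gene. Without replicate 3 of the yak of 4 years, which had the 33 counts, the log2 fold change was 0.95 (adjusted p = 0.0214) and the call was lost on size, as it was with limma on log2(FPKM + 1), at 0.96. BAK1 differed by -0.87 ± 0.34 between yak of 4 years and 6 months (adjusted p = 0.0435), and by -0.31 (adjusted p = 0.446) with library totals alone. Leaving out any 1 library raised that adjusted p to between 0.0510 and 0.133. From 6 to 18 months the difference was -0.72 ± 0.33 (adjusted p = 0.218). From 18 months to 4 years it was -0.12 ± 0.35 (adjusted p = 0.803), and 0.06 with library totals alone. Without replicate 2 of the 18-month group these were -0.75 (adjusted p = 0.271) and -0.08 (adjusted p = 0.878).

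BCL2L11 (ENSBGRG00000026760), which encodes BIM, a BH3-only protein that binds all anti-apoptotic members, was at 16.28, 14.6 and 14.97 FPKM at 6 months and 13.58, 10.48 and 14.27 at 18 months. The yak of 4 years were spread widely, at 13.39, 20.89 and 5.96 FPKM. Cattle–yak were close together and above all yak libraries, at 26.61, 27.74 and 28.3 FPKM. On TMM-scaled CPM the lowest cattle–yak library, at 9.02, was below the highest library of the yak of 6 months, at 9.66.

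Against yak of 4 years, BCL2L11 was 1.96-fold higher (log2 fold change 0.97 ± 0.34, adjusted p = 0.0330), just under the 2-fold threshold. It passed the threshold without replicate 2 of the yak of 4 years (1.37, adjusted p = 0.0130), without replicate 1 of the cattle–yak (1.05, adjusted p = 0.0424), with upper quartile scaling (1.04), with the replicate block (1.06) and with limma on log2(FPKM + 1) and log2(FPKM + 0.1) (1.14 and 1.21), whereas the adjusted p rose to 0.0557 without replicate 1 of the yak of 4 years, to 0.0671 without replicate 2 of the cattle–yak and to 0.0709 without replicate 3 of the cattle–yak. Without replicate 3 of the yak of 4 years, which had the lowest level, the log2 fold change was 0.72 (adjusted p = 0.0241). The age comparisons gave -0.62 ± 0.33 from 6 to 18 months (adjusted p = 0.279), 0.04 ± 0.46 from 18 months to 4 years (adjusted p = 0.953) and -0.60 ± 0.37 from 6 months to 4 years (adjusted p = 0.166). The small value from 18 months to 4 years turned negative, to -0.09, with upper quartile scaling. It was -0.12 (adjusted p = 0.831) without replicate 2 of the 18-month group, and the value from 6 to 18 months was -0.44 (adjusted p = 0.432).

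A second row without a symbol (ENSBGRG00000026761) carries the same KEGG orthology as BCL2L11 and held 0 to 52 counts. The authors' group totals of each row are fractional in 3 groups, but the sums over both rows are whole numbers in all 4 (within 0.01 reads), which is what reads divided between these rows would give. With both rows summed, the difference between cattle–yak and yak of 4 years was 0.97 with an adjusted p of 0.0158.

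PMAIP1 (ENSBGRG00000015982), which encodes NOXA, a BH3-only protein selective for MCL1, had the lowest mean FPKM of the 6 in every group. It was at 1.8, 5.13 and 4.53 FPKM at 6 months, 3.9, 4.6 and 4.41 in the group of 18 months, 3.48, 2.31 and 2.21 in that of 4 years, and 4.9, 3.07 and 4.83 in cattle–yak. Only 7 to 12 counts lay behind each value of the yak of 4 years, so that changes of this gene are hard to see at this depth. The difference between cattle–yak and yak of 4 years was 0.68 ± 0.45 (adjusted p = 0.211), and the groups overlapped. From 6 months to 4 years it was -1.06 ± 0.53 (adjusted p = 0.0989), which became -1.34 (adjusted p = 0.0448) without replicate 1 of the yak of 6 months. From 6 to 18 months it was -0.15 ± 0.50 (adjusted p = 0.869), and 0.18 with library totals alone. The yak of 4 years lay below those of 18 months without overlap, but the difference of -0.86 ± 0.42 did not pass the test (adjusted p = 0.181). With replicate 2 of the 18-month group left out, the values were -0.16 (adjusted p = 0.912) from 6 to 18 months and -0.85 (adjusted p = 0.222) from 18 months to 4 years.

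**Figure D2:**
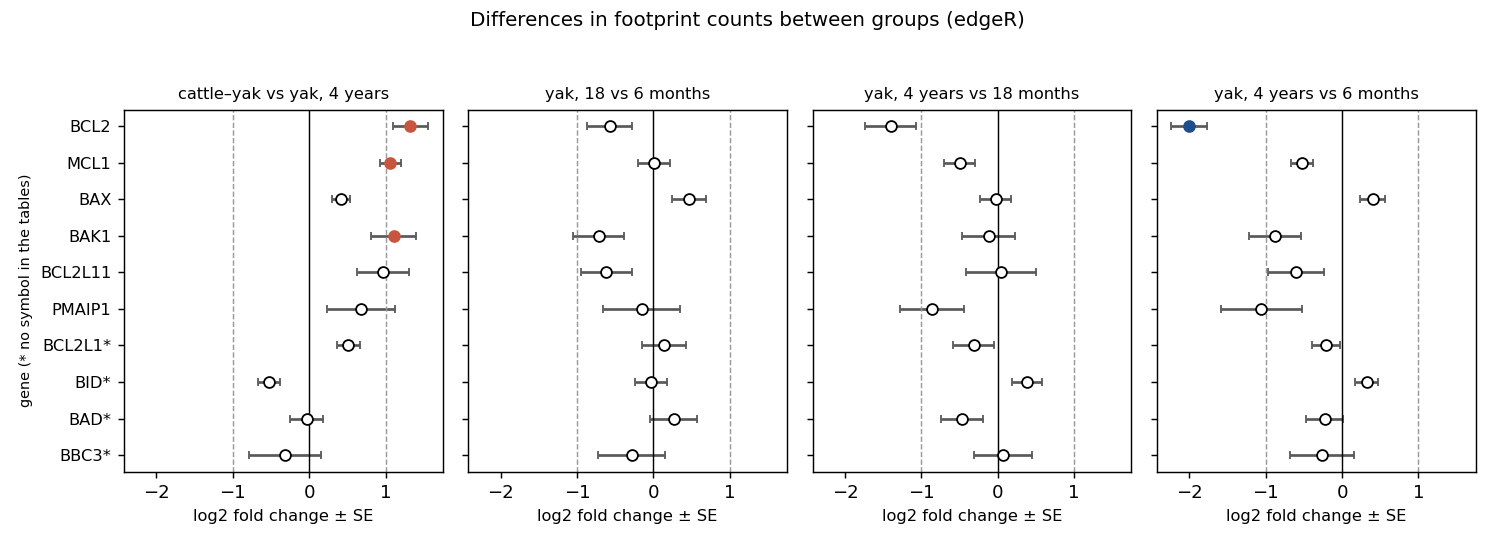
Log2 fold change (horizontal axis, with SE as error bars) of the 6 genes with a symbol and of 4 rows without one (marked with an asterisk and named by KEGG orthology) in the 4 comparisons; filled points were called, open points were not, and dashed lines mark a 2-fold change. Calls are seen for BCL2, MCL1 and BAK1 in cattle–yak against yak of 4 years and for BCL2 between 4 years and 6 months. Directions of the open points between ages depend on the scaling for MCL1, PMAIP1, BCL2L11, BAX and BAK1 as stated in the text. Rows with an asterisk also turn between the plotted value and the log2 ratio of mean FPKM. From 6 months to 4 years these are -0.21 and 0.36 for BCL2L1, -0.23 and 0.35 for BAD, and -0.26 and 0.29 for BBC3. From 6 to 18 months they are -0.03 and 0.31 for BID.

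The 4 members whose symbols are absent were looked for by KEGG orthology after the tables had been opened, and 9 further rows without a symbol carried their terms. BCL2L1 had 6 of these rows, of which 4 had at most 0.61 FPKM in any library and were not tested. The main row (ENSBGRG00000016285) is described in the tables as bcl-2-like protein 1, the BCL-XL anti-apoptotic protein. It was at 16.38, 14.54 and 19.89 FPKM at 6 months, 15.35, 24.68 and 32.48 in the group of 18 months, 20.55, 21.55 and 23.2 in that of 4 years, and 26.16, 33.45 and 33.02 in cattle–yak. Cattle–yak thus lay above the yak of 4 years, by 0.51 ± 0.15 on the log2 scale (adjusted p = 0.0139), below the 2-fold threshold. The next row (ENSBGRG00000016346), a hypothetical protein, differed by 0.09 ± 0.19 (adjusted p = 0.680). The authors' group means of both rows also differ from the means of the whole-number counts, so reads were shared among loci.

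BID (ENSBGRG00000000828), which caspase-8 cleaves to link death receptors with mitochondria, ran the other way. It was at 44.91, 48.79 and 54.32 FPKM in the yak of 4 years and 37.45, 33.24 and 31.82 in cattle–yak, with no overlap. The difference was -0.52 ± 0.14 (adjusted p = 0.0114), which passed the test but not the 2-fold threshold. In the younger yak it was at 25.19, 28.75 and 26 FPKM at 6 months and 33.71, 34.77 and 30.81 at 18 months. The difference from 6 months to 4 years was 0.32 ± 0.15 (adjusted p = 0.0764). BAD (ENSBGRG00000026694), whose binding to BCL2 and BCL2L1 is switched off by phosphorylation, ranged from 14.25 to 32.96 FPKM over all libraries and differed by -0.03 ± 0.22 between cattle–yak and yak of 4 years (adjusted p = 0.906). This row is described as a hypothetical protein and was named BAD by its KEGG orthology alone. BBC3 (ENSBGRG00000015056), which encodes PUMA, a BH3-only protein, stayed between 1.17 and 3.83 FPKM and differed by -0.32 ± 0.47 (adjusted p = 0.573). None of these rows was called in any of the 4 comparisons.

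Ratios of genes within a library do not depend on how libraries are scaled. BAX to BCL2, the ratio most often used to describe this family, was 10.6, 15.0 and 12.4 (ratio of FPKM) in the yak of 6 months. It was 20.7, 34.3 and 24.3 at 18 months, the highest of these in the library that stood apart, and 72.7, 52.6 and 71.9 at 4 years. In cattle–yak it was 38.8, 37.4 and 28.6, below each yak of 4 years, above each yak of 6 months and overlapping with the yak of 18 months. That overlap came from replicate 2 of the 18-month group, and the other libraries of that group lay below all cattle–yak.

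On the log2 scale the BAX to BCL2 ratio was 5.11 ± 0.241 in cattle–yak, against 3.65 ± 0.253 for yak of 6 months, 4.69 ± 0.373 for 18 months and 6.02 ± 0.265 for 4 years (SD, n = 3 each). The difference between cattle–yak and yak of 4 years was -0.91 ± 0.21 (SE of the difference). Between yak of 4 years and 6 months it was 2.37 ± 0.21. In each of the 4 comparisons the groups did not overlap and the two-sided exact permutation test gave p = 0.1 (adjusted over 4 comparisons 0.1), which is the smallest p that 3 against 3 animals allow. Without replicate 2 the mean of the 18-month group was 4.49, and that group still overlapped with neither other yak group.

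BAX to MCL1 moved over a narrower range. The log2 ratio was 0.67 ± 0.12 in cattle–yak, against 0.35 ± 0.12 for yak of 6 months, 0.80 ± 0.16 for 18 months and 1.21 ± 0.0411 for 4 years. The yak of 4 years were again the highest, and cattle–yak overlapped with the yak of 18 months, whose mean without replicate 2 was 0.72. MCL1 to BCL2 was 3.30, 3.89 and 4.81 in yak of rising age and 4.44 in cattle–yak. Here cattle–yak overlapped with the yak of 4 years and, through replicate 2 of the 18-month group alone, with the yak of 18 months. Without replicate 2 the 18-month mean was 3.77.

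**Figure D3:**
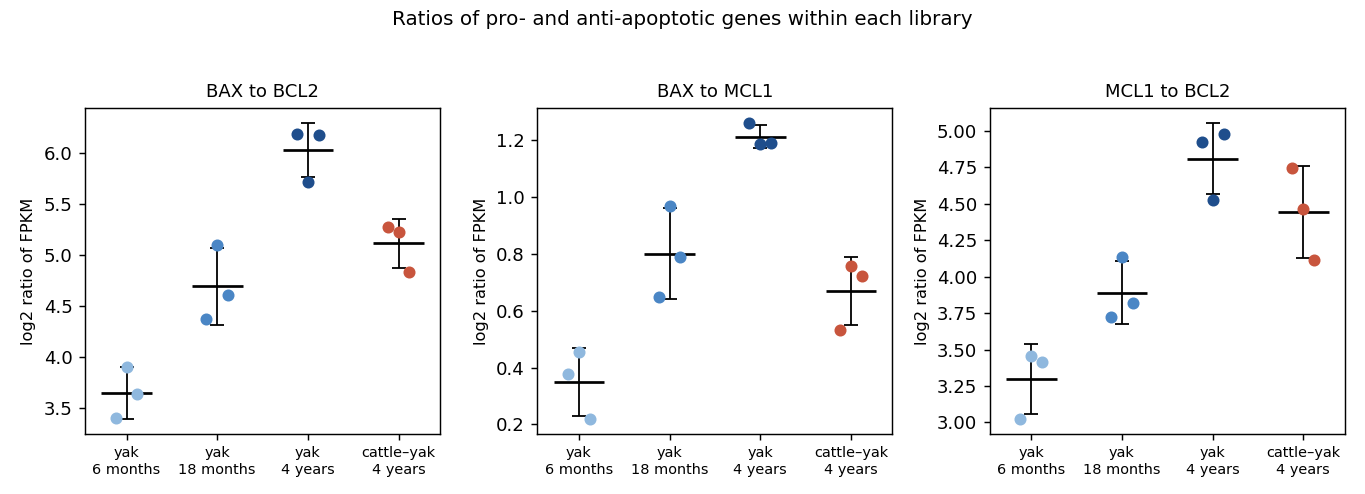
Log2 ratio of FPKM (vertical axis) of BAX to BCL2, BAX to MCL1 and MCL1 to BCL2 in each library; points are libraries, horizontal bars are group means and error bars are SD (n = 3). The ratio of BAX to BCL2 is highest in the yak of 4 years, with a mean of 6.02, and lies at 5.11 in cattle–yak and 3.65 in the yak of 6 months.

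The sum of the pro-apoptotic genes (BAX, BAK1, BCL2L11 and PMAIP1) over that of the anti-apoptotic genes (BCL2 and MCL1) gave log2 ratios of 0.42 ± 0.0965, 0.82 ± 0.15, 1.26 ± 0.0553 and 0.75 ± 0.12 for yak of 6 months, 18 months, 4 years and cattle–yak. Without replicate 2 the 18-month value was 0.74. These sums mostly describe BAX and MCL1, which together made up 86.3% to 96.4% of the summed FPKM of the 6 genes. With BAX left out, the log2 ratio was negative in every group, from -2.93 to -2.44, and the order of the groups was not kept. With BAX and MCL1 both left out, it was 0.99, 1.05, 2.08 and 1.87. Without replicate 2 the 18-month value was -2.94 with BAX left out. With BAX and MCL1 both left out it was 0.93, below the mean of the yak of 6 months. All these sums leave out the rows without a symbol for BCL2L1, BID, BAD and BBC3. The main BCL2L1 row, at means of 16.9, 24.2, 21.8 and 30.9 FPKM, was above BCL2 in every group. BID, at 26.6, 33.1, 49.3 and 34.2 FPKM, was above BAK1, BCL2L11 and PMAIP1 in every group. Ratios that include these rows were not computed. The summed FPKM of the 6 genes was 698 ± 47.6 in cattle–yak, against 320 ± 63.1, 464 ± 113 and 450 ± 25.6 in yak of 6 months, 18 months and 4 years.

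The 3 members whose group means spanned the widest range of log2 CPM were BCL2 (1.97), BAK1 (1.14) and BCL2L11 (1.10), and genes with the most similar profiles were taken from 12080 genes with a symbol (Pearson's r of log2 CPM over 12 libraries, which share the group structure and the depth). Closest to BCL2 were CNRIP1 (0.986), HUWE1 (0.983), an E3 ubiquitin ligase that targets MCL1, and HSD17B10 (0.979), a mitochondrial dehydrogenase. Closest to BAK1 were ORAI1 (0.904), a calcium channel subunit, and PTRH2 (0.893), a mitochondrial peptidyl-tRNA hydrolase. Closest to BCL2L11 were TMEM18 (0.923), MRPS2 (0.919), a protein of the mitochondrial ribosome, and REEP5 (0.909).

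The remaining genes of the pathway were taken from 4 lists, in which 43 genes were tested in cattle–yak against yak of 4 years. The median log2 fold change of all genes in that comparison was -0.00, and 17.1% of all genes were called higher and 27% lower, against 14 higher and 4 lower of the 43. Of the other BCL2 family genes, 0 of 5 were higher by edgeR, with 0 higher also at an unadjusted p below 0.05, and 1 was lower, and the median log2 fold change was -0.62. The gene that was lower is BCL2L14, with 290, 343 and 218 counts in the yak of 4 years and 7, 5 and 7 counts in the more deeply sequenced cattle–yak (log2 fold change -6.74 ± 0.29, adjusted p = 8.90e-07). In yak of 18 months BCL2L14 was at 7, 156 and 10 counts, and the 156 counts were in the library that carried the spermatid markers. The anti-apoptotic BCL2L2, whose loss makes male mice sterile, was at 28.6 ± 3.63 FPKM in the yak of 4 years and 34.7 ± 4.21 in cattle–yak and was not called (0.29 ± 0.15, adjusted p = 0.136).

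Downstream of the mitochondria, 6 of 14 genes were higher in cattle–yak and 1 was lower, with a median log2 fold change of 0.82. AIFM1, a mitochondrial flavoprotein that acts in caspase-independent death, was at 36.79, 25.48 and 25.52 FPKM in the yak of 4 years and 162.35, 146.54 and 164.74 in cattle–yak (2.42 ± 0.17, adjusted p = 6.90e-06). VDAC1, the main channel of the outer mitochondrial membrane, was 3.65-fold higher (1.87 ± 0.12, adjusted p = 5.78e-06). CASP6, HTRA2 and XIAP, of which XIAP inhibits caspases, were among the others that were higher. BIRC3, another inhibitor of apoptosis, was lower (-1.69 ± 0.23, adjusted p = 0.000305).

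In the death receptor pathway 3 of 9 genes were higher and 1 was lower, with a median of 0.49. TRADD, the adaptor of TNF receptor 1, was 2.43-fold higher (1.28 ± 0.19, adjusted p = 0.000415), and CASP8, the initiator caspase, was 2.07-fold higher (1.05 ± 0.28, adjusted p = 0.0111). CFLAR, which blocks caspase-8, was also higher. TNFRSF21, a death receptor, was lower (-2.02 ± 0.26, adjusted p = 0.000206). Among 15 regulators of the family, 5 were higher and 1 was lower, with a median of 0.77. KITLG, the survival factor that Sertoli cells offer to spermatogonia, was 3.43-fold higher (1.78 ± 0.23, adjusted p = 0.000253), and YWHAB, a 14-3-3 protein of the kind that holds phosphorylated BAD, was 2.76-fold higher (1.47 ± 0.12, adjusted p = 1.51e-05). FOXO1 and USP9X, a deubiquitinase that stabilizes MCL1, were among the others that were higher, and TP73 was lower (-1.14 ± 0.32, adjusted p = 0.0136).

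**Figure D4:**
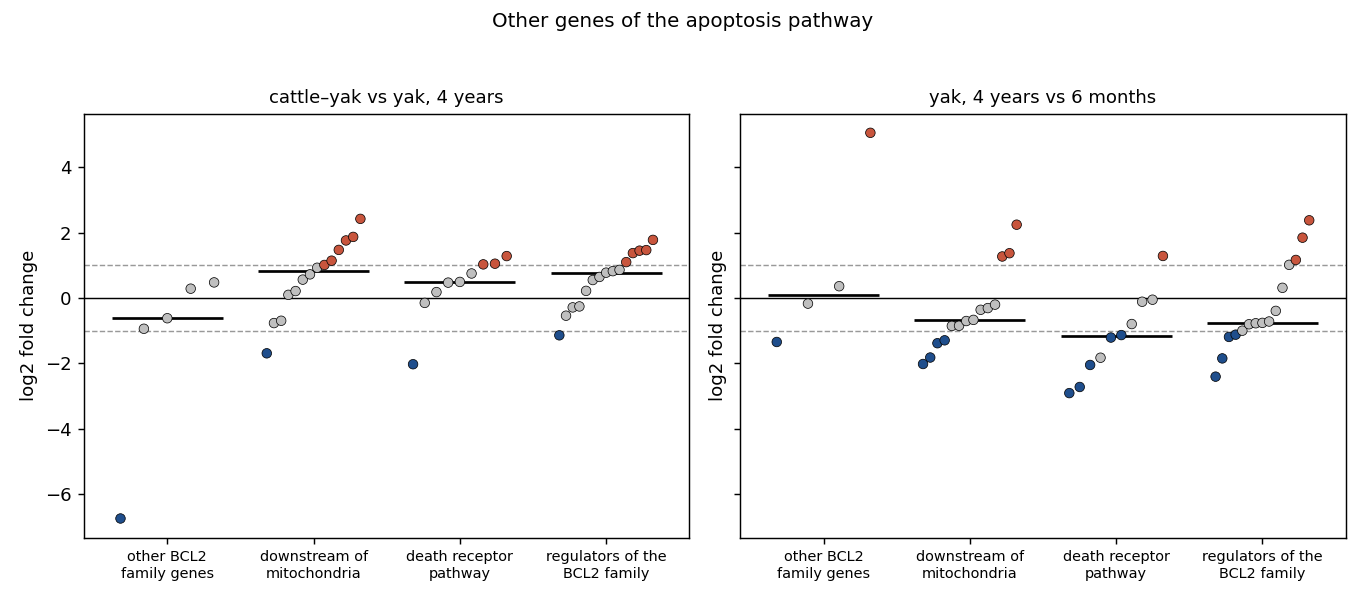
Log2 fold change (vertical axis) of the genes of 4 apoptosis lists in cattle–yak against yak of 4 years and in yak of 4 years against 6 months; points are genes sorted by value, red and blue points were called higher and lower, grey points were not called, black bars are list medians and dashed lines mark a 2-fold change. The lowest point on the left is BCL2L14, at -6.74, which is also the highest on the right, at 5.05.

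In yak of 4 years against 6 months, where the median of all genes was 0.08 and 31% of all genes were called higher and 24.7% lower, 8 of 43 list genes were higher and 14 lower. Of the other BCL2 family genes 1 of 4 was higher, BCL2L14 (5.05 ± 0.51, adjusted p = 2.56e-05), and 1 was lower, BOK (-1.34 ± 0.35, adjusted p = 0.00683), a BAX-like gene. Downstream of the mitochondria 3 of 14 were higher and 4 lower, with a median of -0.69. BIRC5, a mitotic inhibitor of apoptosis, was 4.73-fold higher (2.24 ± 0.30, adjusted p = 0.000152) and VDAC1 was lower (-1.82 ± 0.16, adjusted p = 1.26e-05). APAF1 and BIRC3 were also higher, and CASP6 and DFFB were also lower.

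Of 10 death receptor genes 1 was higher and 5 were lower at 4 years, with a median of -1.17. CASP8 (-2.91 ± 0.32, adjusted p = 4.05e-05) and CFLAR (-2.72 ± 0.23, adjusted p = 8.91e-06) were lower, and TNFRSF21 was higher (1.29 ± 0.23, adjusted p = 0.000999). Among 15 regulators 3 were higher and 4 lower, with a median of -0.76. TP73 was higher (2.38 ± 0.55, adjusted p = 0.00395) from low counts, and KITLG was lower (-1.85 ± 0.26, adjusted p = 0.000207). In both comparisons with the 18-month group 0 list genes were called by edgeR. An unadjusted p below 0.05 was found for 7 of 43 from 6 to 18 months (16.3%, against 25.8% of all genes) and for 22 of 42 from 18 months to 4 years (52.4%, against 35.4%). Without replicate 2 of the 18-month group, 7 of 42 were higher and 10 lower at 4 years, against 26.1% and 18.5% of all genes. From 6 to 18 months 0 of 43 were called without that library, against 0.226% of all genes higher and 0.279% lower.

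Footprints of cell type markers differed between the groups in which BCL2, MCL1 and BAK1 differed. All 7 round spermatid markers and all 5 elongating spermatid markers tested were lower in cattle–yak than in yak of 4 years. Their summed FPKM ranged from 1835 to 2413 and from 8851 to 12043 in the yak of 4 years, and from 5.66 to 15.9 and from 76.1 to 159 in cattle–yak. By contrast 6 of 6 peritubular, 3 of 3 Leydig, 4 of 5 fibroblast and matrix, 3 of 6 Sertoli and 4 of 7 spermatogonial markers were higher in cattle–yak. Over all genes tested in this comparison, 17.1% were called higher and 27% lower. The summed Leydig markers were 86.3 to 218 FPKM in the yak of 4 years and 672 to 1134 in cattle–yak, and the peritubular markers 222 to 231 and 813 to 1324. Fewer cells of a type and fewer footprints per cell cannot be told apart in whole tissue, and the part that these markers' cell types have in the levels of the BCL2 family genes was not tested.

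The same markers moved with age. In yak of 6 months, where BCL2 was at its highest on TMM-scaled CPM, the summed elongating spermatid markers were 9.12 to 16.8 FPKM and 1 of the 7 round spermatid markers was at 0 in all 3 libraries. Sertoli markers summed to 6159 to 7606 FPKM at 6 months, 623 to 860 at 4 years and 1145 to 1414 in cattle–yak. MCL1 had 124 ± 26.2 FPKM at 6 months and 128 ± 3.74 at 4 years. On TMM-scaled CPM, however, it was at 120 ± 15.0 at 6 months and 85.3 ± 5.54 at 4 years, without overlap. The main test called for no 2-fold change here, but the lower level at 4 years passed the adjusted p. As stated above, that direction depended on scaling. No yak library reached the level of MCL1 in cattle–yak on either scale. Remaining lists were less uniform. In cattle–yak against yak of 4 years, where 17.1% of all genes were called higher and 27% lower, spermatocyte markers were lower for 3 of 9. Endothelial markers were higher for 1 and lower for 1 of 7, and macrophage markers were lower for 2 of 5. Of the T cell markers 0 of 3 were called by edgeR, none of them with an unadjusted p below 0.05.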

How the data were processed

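Ribo-seq of testis was measured in 12 libraries. The authors trimmed reads, discarded rRNA (Bowtie2) and further small RNA (BLAST), kept reads of footprint length, aligned them to the yak genome BosGru 3.0 with STAR and counted them with RSEM. The expected counts deposited by the authors are whole numbers per gene without normalization, and their group mean columns were used only to find fractional, shared reads (tolerance 0.001 counts; 7177 of 20965 genes). FPKM deposited by the authors divides counts by gene length and library total. Columns of the authors' fold changes, p-values and FDR were not used.

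Low counts were removed by filterByExpr, TMM factors were computed, and edgeR 4.0.16 (R 4.3.3) gave quasi-likelihood tests on the 6 libraries of the groups compared, with Benjamini-Hochberg adjustment over all genes tested. SE is the log2 fold change over the square root of F. Called genes had an adjusted p below 0.05 and at least a 2-fold change. The test was checked on simulated data, where it recovered most planted changes in cattle–yak against yak of 4 years and in yak of 4 years against 6 months. It recovered few from 6 to 18 months and none from 18 months to 4 years, so an absence of calls with the 18-month group says little. All planted changes were larger than 2-fold, so the check does not cover changes near or below that threshold. Ratios used exact permutation tests (scipy 1.17.1). Alternatives were DESeq2 1.42.0, other scalings, no filter, all 12 libraries in 1 fit, limma 3.58.1 on log2 FPKM, a replicate block, the adjusted p alone, and each library left out. The summing of both BCL2L11 rows, the ratios without MCL1 or without replicate 2 of the 18-month group and the search by KEGG orthology were added after the data had been seen.

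Every member with a row was named, and from each other list up to 3 called genes with the largest change per comparison, at most 2 in a direction; other called genes were named without values, and BCL2L2 was chosen after its values were seen. Some genes that this rule names are not reported here, but are included in the counts. The members and lists were chosen with earlier results of these data known. Library totals were 16304058 to 52616039 counts. Nothing separates animal from library preparation, since each animal has 1 library.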

Additional observations from a re-analysis of the deposited data

How the results depend on the processing

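The calls of BCL2 in cattle–yak against yak of 4 years and between 6 months and 4 years held under all 16 alternatives, whereas values near the 2-fold threshold and small differences between ages did not. Among these 16, the adjusted p alone could not lose a call, and summing the BCL2L11 rows left the BCL2 counts unchanged. With the adjusted p alone, without a 2-fold threshold, 5 members passed as higher in cattle–yak against yak of 4 years (4 with all 12 libraries in 1 fit, where BAX was lost, and 4 without replicate 1 of the yak of 4 years or replicate 2 or 3 of the cattle–yak, where BCL2L11 was lost), and between 6 months and 4 years 1 was higher and 3 were lower. Over all genes the adjusted p alone gave 31.5% higher and 34.2% lower in the first of these comparisons, and 37.7% and 34.8% in the second. From 18 months to 4 years 1 member (BCL2) was lower with DESeq2 and with all 12 libraries in 1 fit. Leaving out 1 library gave 0 to 1 there, with 1 only without replicate 2 of the 18-month group. The shares of all genes that were lower were 12.5% with DESeq2, 14.0% with all 12 libraries in 1 fit and 18.5% without that replicate. From 6 months to 4 years leaving out 1 library gave 1 to 2 members lower, with PMAIP1 added without replicate 1 of the yak of 6 months. Leaving out 1 library gave 23.6% to 24.1% of all genes lower there. The replicate block gave 4 members called in cattle–yak against yak of 4 years, where BCL2L11 was added at 1.06. It called 16.7% of all genes higher and 26.6% lower there. It gave 1 from 6 months to 4 years and 0 in both other comparisons, and changed no other call. Of all genes it called 30.1% higher and 24.0% lower from 6 months to 4 years. The shares were 1.58% and 2.04% from 6 to 18 months, and 0% in either direction from 18 months to 4 years. Deviations of same-numbered libraries from their group means (log2 CPM) correlated at -0.112 to 0.0715. With 3 libraries a group, these values cannot settle whether replicate numbers pair animals.

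Directions turned for differences that did not pass the 2-fold threshold. From 6 to 18 months MCL1 was at -0.025 without the filter, -0.019 with all 12 libraries in 1 fit and -0.00056 with the replicate block, and from -0.16 to 0.10 with 1 library left out. PMAIP1 was at 0.18 with library totals alone, 0.22 and 0.29 with limma on log2(FPKM + 1) and log2(FPKM + 0.1), and from -0.44 to 0.070 with 1 library left out. From 18 months to 4 years BCL2L11 was at -0.087 with upper quartile scaling, -0.074 and -0.092 with limma, -0.055 with the replicate block, -0.056 with both rows summed, and from -0.29 to 0.37 with 1 library left out. BAX was at 0.040 with DESeq2, 0.14 with library totals alone and 0.14 in both limma fits, and from -0.14 to 0.14 with 1 library left out. BAK1 was at 0.060 with library totals alone, 0.017 and 0.012 with limma, and from -0.26 to 0.12 with 1 library left out. From 6 months to 4 years MCL1 was at 0.033 with library totals alone and 0.062 and 0.063 with limma. The log2 ratio of pro- to anti-apoptotic members without BAX was -2.44, -2.93, -2.78 and -2.64 in yak of 6 months, 18 months, 4 years and cattle–yak. Over all genes, DESeq2 called 1083 higher and 796 lower from 6 to 18 months and 1276 and 2003 from 18 months to 4 years. Causes were not tested, except that library totals alone raised the median of all genes by 0.37, 0.18 and 0.57 on the log2 scale in the 3 age comparisons. In the yak of 4 years PMAIP1 had as few as 7 counts and BAK1 as few as 33.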
